A study of Mus musculus with 12 samples.

Results

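Collagen chain genes were followed in mouse hearts with and without pressure overload and with and without apelin. The members were all genes whose symbol has the form Col, a number, a and a number, such as Col1a1, and each was represented by its probe set (the group of array probes for 1 transcript) of highest mean. There were 42 such genes among 18193 genes on the array, and 24 of them passed the filter on low values, which keeps the upper 60% of genes by mean. The arrays came from 4 groups of 3 hearts, described as biological replicates: aortic banded apelin-knockout mice (KO AB), sham-operated apelin-knockout mice (KO Sham), aortic banded wild-type mice (WT AB) and sham-operated wild-type mice (WT Sham). Aortic banding narrows the aorta and raises the pressure against which the heart pumps. The labels do not state strain, age, sex, time after surgery or which part of the heart was taken. The comparisons ask how collagen expression responds to load in each genotype, and whether the genotypes differ at rest or under load.

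Collagens are secreted chains that wind around each other into helices and give tissue its tensile strength. In the heart they are made mostly by fibroblasts, while the vessel and muscle cell basement membranes hold the network-forming type IV chains, and pressure overload is a classic setting in which collagen accumulates between cardiomyocytes. The chains fall into classes by how they assemble: fibrils, basement membrane networks, beaded filaments, short-chain networks, chains that decorate fibrils (FACIT collagens), and multiplexins, whose ends can be released as soluble fragments.

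All values are probe set intensities on a linear scale, in arbitrary units. Differences are in log2(intensity + 16), which understates the change of dim genes, and levels of different probe sets are not comparable with each other. A gene is said to have risen or fallen where limma's adjusted p, by the Benjamini-Hochberg method over the 10916 genes tested, is under 0.05. The labels call the arrays biological replicates and do not say which mice they came from, so p-values measure the spread between these arrays.

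1 array stood apart and bears on everything that follows. Knockout banded 1, by its label, read 271 for Apln, the apelin gene itself, while the other 5 knockout arrays read 63.7 to 160 and the wild-type arrays 205 to 333. The same array held airway transcripts that were low in the other 11, with summed airway markers of 1637 against at most 215. That sum rests on Scgb1a1 (1094, against at most 49.8) and Scgb3a2 (410, against at most 51.8), while the other 3 airway markers, Sftpa1, Sftpb and Sftpc, lay within the range of the other arrays. Counts of collagens past the adjusted p threshold that this array changes are given with and without it. Counts by unadjusted p, by sign or by overlap are given only with it. Heart muscle markers were present in all arrays, with a summed intensity of 60292 to 115428 over 7 genes. Summed adipocyte markers were 517 in knockout banded 1 and 513 in wild-type banded 1, against at most 174 in the other arrays. Most of this was Adipoq, at 392 and 327 in these arrays and at most 103 in the others.

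Banding in knockout hearts raised fibril-forming collagens and the short-chain collagen Col8a1. Col1a1, Col3a1, Col5a1, Col5a2 and Col8a1 rose, by 1.60- to 4.48-fold, 0 collagens fell and 19 of the 24 tested did not pass. The background in this comparison was 3.81% of all genes called either way and 2.05% called higher. The median difference was 0.70 over the 24 collagens and -0.02 over all tested genes, and 23 of 24 collagens had a positive difference, against 46.9% of all genes. The intensities of 12 of 24 collagens did not overlap between the groups, against 26.6% of all genes.

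Type III and type I chains make up most of the fibrils between heart muscle cells. Col3a1, the single chain of type III collagen, read 1751, 4788 and 3898 in knockout banded 1, 2 and 3, against 1035, 1180 and 1241 in knockout sham hearts. Every banded heart lay above every sham heart, and the array labelled knockout banded 1 lay nearest to the shams. Col3a1 rose by 1.47 (SE 0.29, adjusted p = 0.0225), with means of 3479 ± 1561 in banded and 1152 ± 106 in sham hearts (SD, n = 3). Col1a1, the main chain of type I collagen, read 441, 1068 and 639 in the banded hearts, against 285, 257 and 324 in the shams. Its groups did not overlap either, and it rose by 1.18 (SE 0.25, adjusted p = 0.0287). Col1a2, the partner chain of Col1a1, read 668, 2282 and 1620 in the banded hearts, against 436, 692 and 602 in the shams. The array labelled knockout banded 1 lay inside the sham range for Col1a2, which was at 1.23 (SE 0.33, adjusted p = 0.0550) and did not pass.

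Type V chains sit inside type I fibrils and set their diameter. Col5a2 read 229, 1135 and 795 in knockout banded hearts, against 172, 184 and 198 in knockout shams. The banded hearts spread widely, with a mean of 719 ± 458, while the shams lay close together at 185 ± 12.8 (SD, n = 3), and the groups did not overlap. Col5a2 rose by 1.61 (SE 0.41, adjusted p = 0.0477). Col5a1, the other common type V chain, read 319, 593 and 406 in the banded hearts, against 252, 272 and 255 in the shams. It rose by 0.68 (SE 0.17, adjusted p = 0.0467), a smaller difference than that of Col5a2 with no overlap between groups. Col5a3, a chain of more limited tissue range, read 195, 369 and 300 in the banded hearts, against 140, 116 and 127 in the shams, and was at 1.04 (adjusted p = 0.0829). Col27a1, a fibrillar chain known from cartilage, read 142, 167 and 166 in the banded hearts, against 166, 164 and 130 in the shams. Its groups overlapped, and its difference of 0.05 had a 95% confidence interval of -0.23 to 0.32. A Col27a1 probe set of lower mean read 86.5, 114.3 and 93.4 in the banded hearts, against 84.4, 70.4 and 83.1 in the shams. Those readings did not overlap, so the probe sets of this gene disagreed.

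The largest difference among the tested collagens belonged to Col8a1, a short-chain collagen of vessel walls and of endothelial and smooth muscle cells. Col8a1 read 324, 1540.0 and 1334 in knockout banded 1, 2 and 3, against 170, 194 and 188 in knockout shams. It rose by 2.16 (SE 0.47, adjusted p = 0.0292), a 4.48-fold difference on the log2(intensity + 16) scale. Its partner chain Col8a2 lay below the filter, and read 21.2, 121 and 56.3 in the banded hearts, against 16.5, 19.6 and 11.1 in the shams. Fitted without the filter, Col8a2 was at 1.19 (adjusted p = 0.152).

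**Figure D1:**
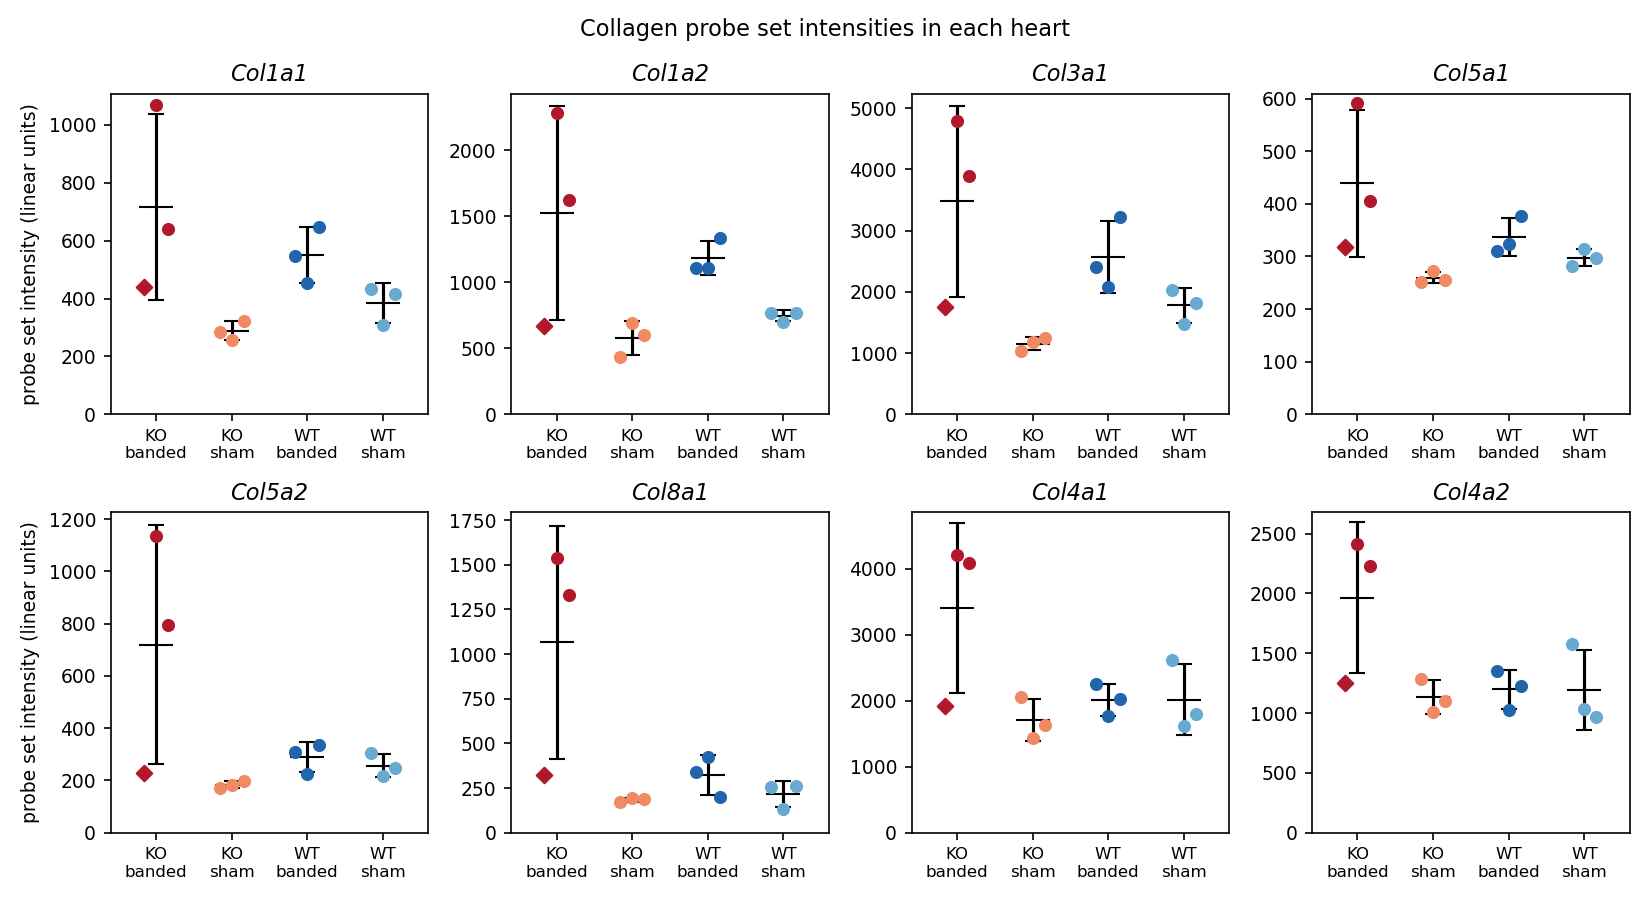
Linear probe set intensity of 8 collagen genes in each heart, by group from knockout banded to wild-type sham. Coloured points are single arrays, the diamond is the array labelled knockout banded 1, and black bars are the mean and SD of 3 arrays. For Col8a1, knockout banded 2 and 3 read 1540.0 and 1334, while the other 10 arrays read at most 424.

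Upstream sequence is shown for the called members with a window, Col3a1, Col5a1 and Col8a1, and for Col1a2, the partner chain of Col1a1, which was not called and was chosen after its values were seen. RefSeq promoter windows (GRCm38.p6) matched 33 of the 42 collagens and 20 of the 24 tested. The 250 bases before each annotated start were searched on both strands. The promoter elements searched for were the TATA box, spelled TATAAA, the CCAAT box, and the GC box, which is spelled GGGCGG. The other searches were for the letters that TEAD factors are known to bind, spelled GGAATG, and for a string of the SMAD type, spelled CAGACA. Capitals mark every match, and matches do not overlap in these 4 windows. Windows lie at chr1:45311288-45311537 on the plus strand for Col3a1, chr6:4505368-4505617 on the plus strand for Col1a2, chr2:27886175-27886424 on the plus strand for Col5a1 and chr16:57754738-57754987 on the minus strand for Col8a1.
Col3a1: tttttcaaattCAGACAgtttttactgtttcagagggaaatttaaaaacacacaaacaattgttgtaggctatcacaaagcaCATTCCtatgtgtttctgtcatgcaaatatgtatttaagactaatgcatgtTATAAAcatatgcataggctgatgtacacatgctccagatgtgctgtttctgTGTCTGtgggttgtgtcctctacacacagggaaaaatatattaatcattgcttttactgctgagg
Col1a2: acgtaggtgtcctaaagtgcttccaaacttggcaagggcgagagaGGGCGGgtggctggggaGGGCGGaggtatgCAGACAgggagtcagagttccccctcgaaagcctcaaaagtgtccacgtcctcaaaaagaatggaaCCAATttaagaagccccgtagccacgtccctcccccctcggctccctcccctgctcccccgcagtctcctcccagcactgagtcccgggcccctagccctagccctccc
Col5a1: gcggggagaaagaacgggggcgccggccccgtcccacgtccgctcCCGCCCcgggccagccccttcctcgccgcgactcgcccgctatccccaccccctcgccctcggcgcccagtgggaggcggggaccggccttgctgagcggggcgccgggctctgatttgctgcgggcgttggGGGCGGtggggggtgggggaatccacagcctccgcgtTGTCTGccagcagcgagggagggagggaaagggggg
Col8a1: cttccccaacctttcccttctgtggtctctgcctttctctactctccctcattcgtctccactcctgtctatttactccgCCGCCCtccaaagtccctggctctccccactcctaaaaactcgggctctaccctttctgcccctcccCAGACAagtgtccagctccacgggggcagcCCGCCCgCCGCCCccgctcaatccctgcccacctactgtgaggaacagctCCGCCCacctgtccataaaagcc

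A collagen counted when any of its windows matched, and Col9a1, Col6a2 and Col18a1 had more than 1 window, while the shares of all windows are per window. The CAGACA string was present in 7 of the 20 tested collagens with a window, against 17.1% of all 32851 windows. CCAAT was present in 9 of 20, against 33.8%, and GGGCGG in 12 of 20, against 32.7%. TATAAA was present in 1 of 20, Col3a1, against 12.4%, and GGAATG in 4 of 20, against 12.6%. The windows of Col6a1 and Col4a4, which missed the threshold more narrowly than Col1a2, held 0 matches of any of the motifs. These matches describe letters in the windows and were not tested as binding sites.

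Type IV collagen forms the sheet of the basement membrane, with Col4a1 and Col4a2 as the widely expressed chains and Col4a3, Col4a4 and Col4a5 as a network best known from kidney. In knockout hearts 0 of the 6 type IV genes passed for banding, 5 had positive differences, and their median was 0.76. Col4a1 read 1927, 4213 and 4091 in knockout banded 1, 2 and 3, against 2059, 1431 and 1626 in knockout shams. Col4a2 read 1248, 2416 and 2233 in the banded hearts, against 1286, 1010.1 and 1100.3 in the shams. By these probe sets, knockout banded 2 and 3 lay above the shams for both genes and the array labelled knockout banded 1 lay among them. Col4a1 was at 0.93 (SE 0.27, adjusted p = 0.0773) and Col4a2 at 0.74 (SE 0.24, adjusted p = 0.0967).

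Banded and sham knockout hearts did not overlap for Col4a3, Col4a4 and Col4a5, and none of these passed. Col4a4 read 79.3, 150.3 and 98.9 in knockout banded hearts, against 44.9, 46.8 and 46.9 in knockout shams, at 0.97 (adjusted p = 0.0506). Col4a3 read 70.7, 115 and 74.2 in the banded hearts, against 35.8, 59.2 and 36.2 in the shams, and was at 0.78 (adjusted p = 0.0636). Col4a5 was at 0.40 (adjusted p = 0.129). Col4a6, which joins Col4a5 in some basement membranes, stood apart from the other 5 at -0.09, with a 95% confidence interval of -0.48 to 0.31. It read 47.0, 51.0 and 65.5 in the banded hearts, against 42.0, 61.0 and 76.1 in the shams.

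Several collagen genes are direct neighbours in the genome, and values of neighbours were set side by side. With no protein-coding gene between them in the RefSeq table (GRCm38.p6), banding in knockout hearts gave 1.47 for Col3a1 and 1.61 for Col5a2 on chromosome 1. It gave 0.97 for Col4a4 and 0.78 for Col4a3, also on chromosome 1, and 0.93 for Col4a1 and 0.74 for Col4a2 on chromosome 8. For Col6a1 and Col6a2 on chromosome 10 the differences were 0.84 and 0.67. Col4a5 and Col4a6 on the X chromosome differed in this respect, at 0.40 and -0.09. The Col4a1 and Col4a2 genes run in opposite directions from a shared start region. By the starts used for their promoter windows, at 11312826 and 11312805, they overlap by 22 bases, while the annotated span of Col4a1 reaches 11312889. The following 30 bases, chr8:11312773-11312802 on the plus strand, lie before the Col4a2 start and within the annotated span of Col4a1. They open with a CCAAT box, in capitals.
Col4a2: CCAATttgttggcgctgccccctcccctcg

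Type VI chains form beaded filaments that link cells to the fibrils, and their 3 tested genes differed among themselves. Col6a1 read 677, 1382 and 1114 in knockout banded 1, 2 and 3, against 517, 547 and 627 in knockout shams. Its groups did not overlap, and its difference of 0.84 (SE 0.21) missed the threshold at adjusted p = 0.0502. Col6a2 read 545, 985 and 879 in the banded hearts, against 503, 473 and 475 in the shams, at 0.67 (adjusted p = 0.148). Col6a3, the longest of the type VI chains, read 302, 382 and 329 in the banded hearts, against 244, 318 and 284 in the shams. Its groups overlapped, and its difference was 0.25 (adjusted p = 0.602), with a 95% confidence interval of -0.27 to 0.77.

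FACIT collagens bind the surface of fibrils, and 0 of the 4 tested passed in knockout hearts. Col14a1 read 170, 385 and 271 in the banded hearts, against 116, 160.0 and 198 in the shams, at 0.70 (adjusted p = 0.151). Col16a1 read 74.8, 162 and 103 in the banded hearts, against 55.3, 55.9 and 70.1 in the shams, with no overlap and a difference of 0.71 (adjusted p = 0.122). Col9a1 and Col20a1 were at 0.36 and 0.23. Col12a1, a FACIT chain of loaded connective tissue, fell just under the filter, with readings of 28.9, 60.8 and 46.0 in the banded hearts, against 31.6, 48.9 and 42.6 in the shams. A Col12a1 probe set of lower mean read 28.9, 79.9 and 69.7 in the banded hearts, against 15.7, 24.7 and 8.6 in the shams, so the probe sets of this gene disagreed.

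The multiplexins and Col7a1 did not pass either. Col15a1, a multiplexin of vessel and muscle basement membranes, read 330, 718 and 547 in knockout banded hearts, against 353, 335 and 418 in knockout shams, at 0.45 (adjusted p = 0.319). Col18a1, the other multiplexin and the source of the fragment endostatin, read 77.8, 147 and 126 in the banded hearts, against 57.3, 88.1 and 77.2 in the shams, at 0.53 (adjusted p = 0.201). The array labelled knockout banded 1 lay below the sham range for Col15a1 and within it for Col18a1. Col7a1, the anchoring fibril chain of skin, was at 0.26 (adjusted p = 0.466).

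Of the 18 collagens under the filter, 0 passed for banding in knockout hearts when all genes were fitted. Their means over the 12 arrays were 1.77 to 44.7, and no detection calls were available for the probe sets. The smallest p among them belonged to Col2a1, the main fibrillar chain of cartilage. It read 16.8 to 32.5 in the banded hearts, and averaged 7.53 ± 2.17 in the shams (SD, n = 3), at 0.82 (adjusted p = 0.0514). Col11a1, a fibrillar chain that joins type II and type V collagen, read 22.5, 49.4 and 42.5 in the banded hearts, against 20.1, 21.0 and 11.6 in the shams, at 0.67 (adjusted p = 0.137). Col11a2, also fibrillar, read 4.2, 27.3 and 35.9 in the banded hearts, against 45.8, 23.4 and 51.1 in the shams. It had the lowest difference of the 18, -0.62 (adjusted p = 0.443), and Col8a2 had the highest, 1.19.

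**Figure D2:**
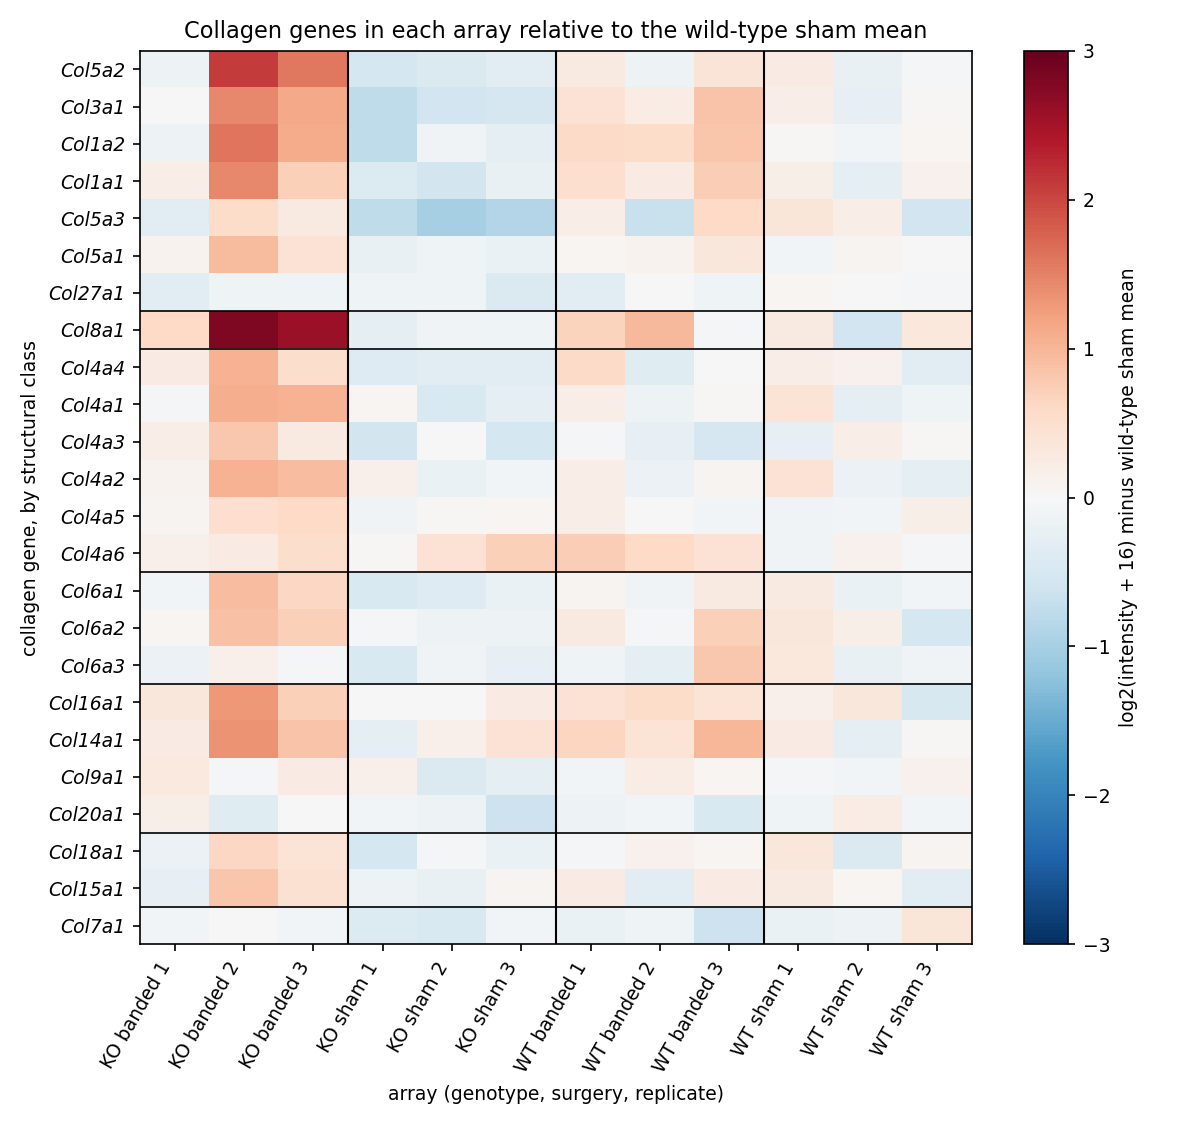
Difference of each tested collagen in each array from the wild-type sham mean, in log2(intensity + 16), with rows grouped by structural class and columns by group from knockout banded to wild-type sham. Knockout banded 2 and 3 stand out across most rows, with median differences of 0.91 and 0.57, while the array labelled knockout banded 1 has a median of 0.07.

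Among knockout banded hearts, collagen values were higher in knockout banded 2 and 3 than in the array labelled knockout banded 1. Relative to the knockout sham mean, the median difference over the 24 tested collagens was 0.25, 1.15 and 0.71 in knockout banded 1, 2 and 3. The number of collagens above every knockout sham heart was 14, 21 and 22 of 24, against 28.7%, 32.2% and 29.9% of all tested genes. It was 16, 12 and 16 of 24 in wild-type sham 1, 2 and 3, against 26% to 30.8% of all tested genes. With knockout banded 1 left out, 18 of 24 collagens rose, against 13.2% of all genes called, and the 5 called with all arrays were among the 18. Then Col5a2 was at 2.27, Col8a1 at 2.86, Col1a2 at 1.73 and Col4a1 at 1.29. The 18 were 6 of 7 fibrillar, 5 of 6 type IV, 2 of 3 type VI, 2 of 4 FACIT and both multiplexin genes, with Col8a1. The 6 that did not pass were Col4a6, Col6a3, Col7a1, Col9a1, Col20a1 and Col27a1, at -0.01 to 0.32.

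The count of 5 also depended on the other arrays. It dropped to 0 when any 1 of knockout banded 2, knockout banded 3 and the 3 knockout shams was left out. It was 3 without wild-type banded 3, wild-type sham 1 or wild-type sham 2, which enter this comparison only through the shared estimate of spread. With only the knockout arrays in the fit it was 0.

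**Figure D3:**
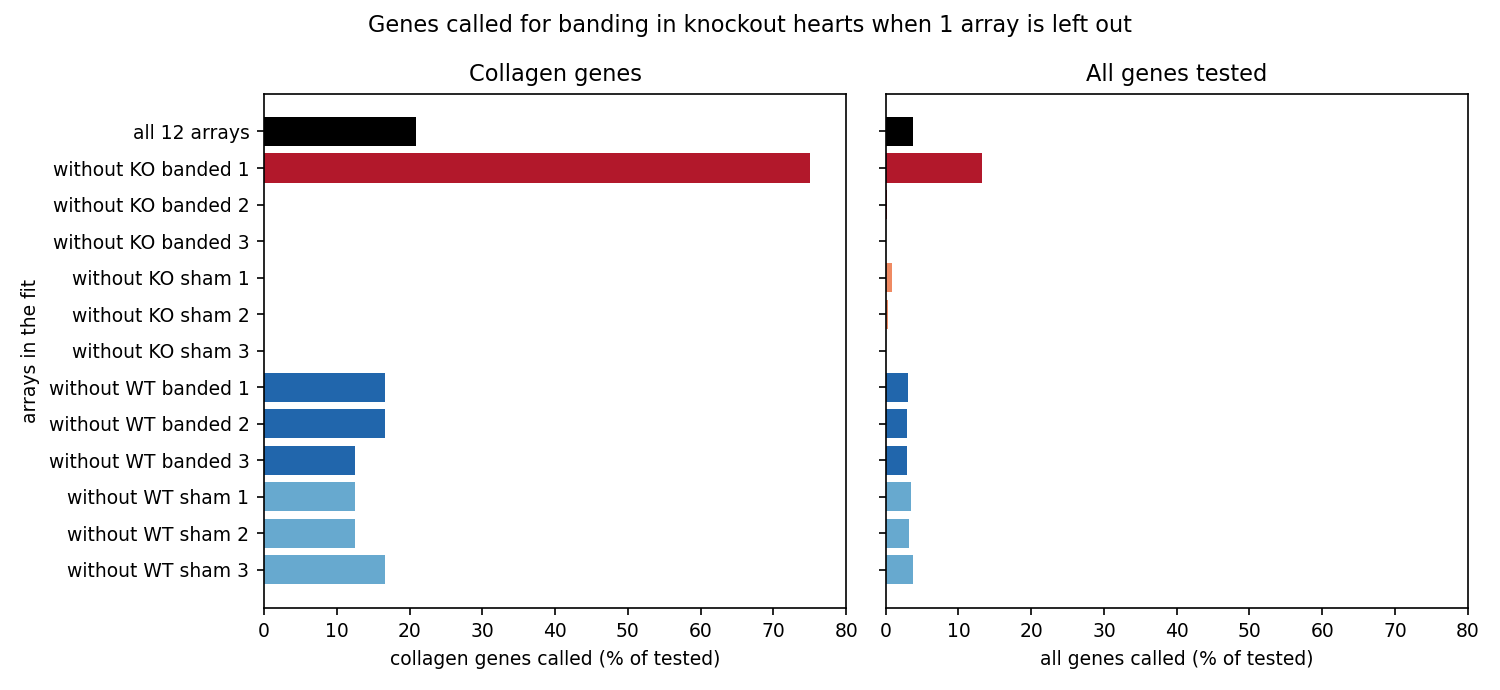
Share of tested collagen genes (left) and of all tested genes (right) called for banding in knockout hearts with all 12 arrays and with 1 array left out, in percent. The collagen bar is tallest without the array labelled knockout banded 1, where 18 of 24 collagens and 13.2% of all genes were called, and is at 0 without any other knockout array.

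Other probe sets of the same genes were read as well. Of the 42 collagens, 27 had more than 1 probe set. When each was tested on its own, the second Col1a1 probe set was at 1.78 and that of Col3a1 at 1.67, and both passed. For Col5a2 the probe set of lower mean rose by 1.999 (adjusted p = 0.0251), while the one representing the gene was at 1.61 (adjusted p = 0.0539) in this larger table, where the one representing Col5a1 (adjusted p = 0.0545) did not pass either. A Col1a2 probe set of lower mean read 270, 1362 and 848 in knockout banded hearts, against 144, 167 and 194 in knockout shams. Its groups did not overlap, and it rose by 1.93 (SE 0.41, adjusted p = 0.0323), while the probe set representing Col1a2 did not pass. All 3 Col8a1 probe sets were at 1.61 to 2.16, of which the one of highest mean passed. The Col4a1 probe set of lower mean read 901, 2560 and 2172 in knockout banded hearts, against 815, 727.5 and 806.5 in knockout shams. That of Col6a2 read 477, 1095 and 917 in the banded hearts, against 219, 373 and 460 in the shams. For both, every banded heart lay above every sham, while the probe set representing Col4a1 overlapped. A dim Col9a1 probe set went the other way, at 11.2, 9.8 and 15.8 against 21.4, 17.8 and 11.9.

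In wild-type hearts 0 of 24 collagens passed for banding in limma, as did 0% of all genes, and 2 had an unadjusted p under 0.05, against 4.89% of all genes. The median difference was 0.08 over the collagens and -0.02 over all tested genes. Positive differences were seen for 20 of 24, against 44.2% of all genes, and 6 of 24 did not overlap between groups, against 9.93%. Col3a1 read 2405, 2071 and 3219 in wild-type banded hearts, against 2036, 1479 and 1819 in wild-type shams. Every banded heart lay above every sham, at 0.51 (95% confidence interval -0.12 to 1.15, adjusted p = 0.921). Col1a2 read 1108, 1106 and 1333 in the banded hearts, against 768, 697 and 770 in the shams, at 0.65 (adjusted p = 0.921). Col1a1 read 548, 453 and 648 in the banded hearts, against 433, 307 and 415 in the shams, at 0.50 (adjusted p = 0.921).

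Chains of other classes were also read in wild-type hearts. Col14a1 read 230, 193 and 301 in the banded hearts, against 171, 113 and 145 in the shams, and was the highest of the 24 at 0.69 (unadjusted p = 0.0230, adjusted p = 0.921 by limma). Col4a6 read 78.3, 69.8 and 59.8 in the banded hearts, against 36.9, 45.5 and 39.6 in the shams, at 0.59 (unadjusted p = 0.00735, adjusted p = 0.921 by limma). These were the only 2 of the 24 tested collagens with an unadjusted p under 0.05. Col8a1 read 339, 424 and 203 in the banded hearts, against 254, 135 and 262 in the shams, with overlap and a difference of 0.53. Col5a2 read 309, 227 and 336 in the banded hearts, against 305, 217 and 249 in the shams, at 0.16. Col4a1 read 2250.1, 1763 and 2035 in the banded hearts, against 2624, 1614 and 1803 in the shams, at 0.03, with a 95% confidence interval of -0.56 to 0.61.

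**Figure D4:**
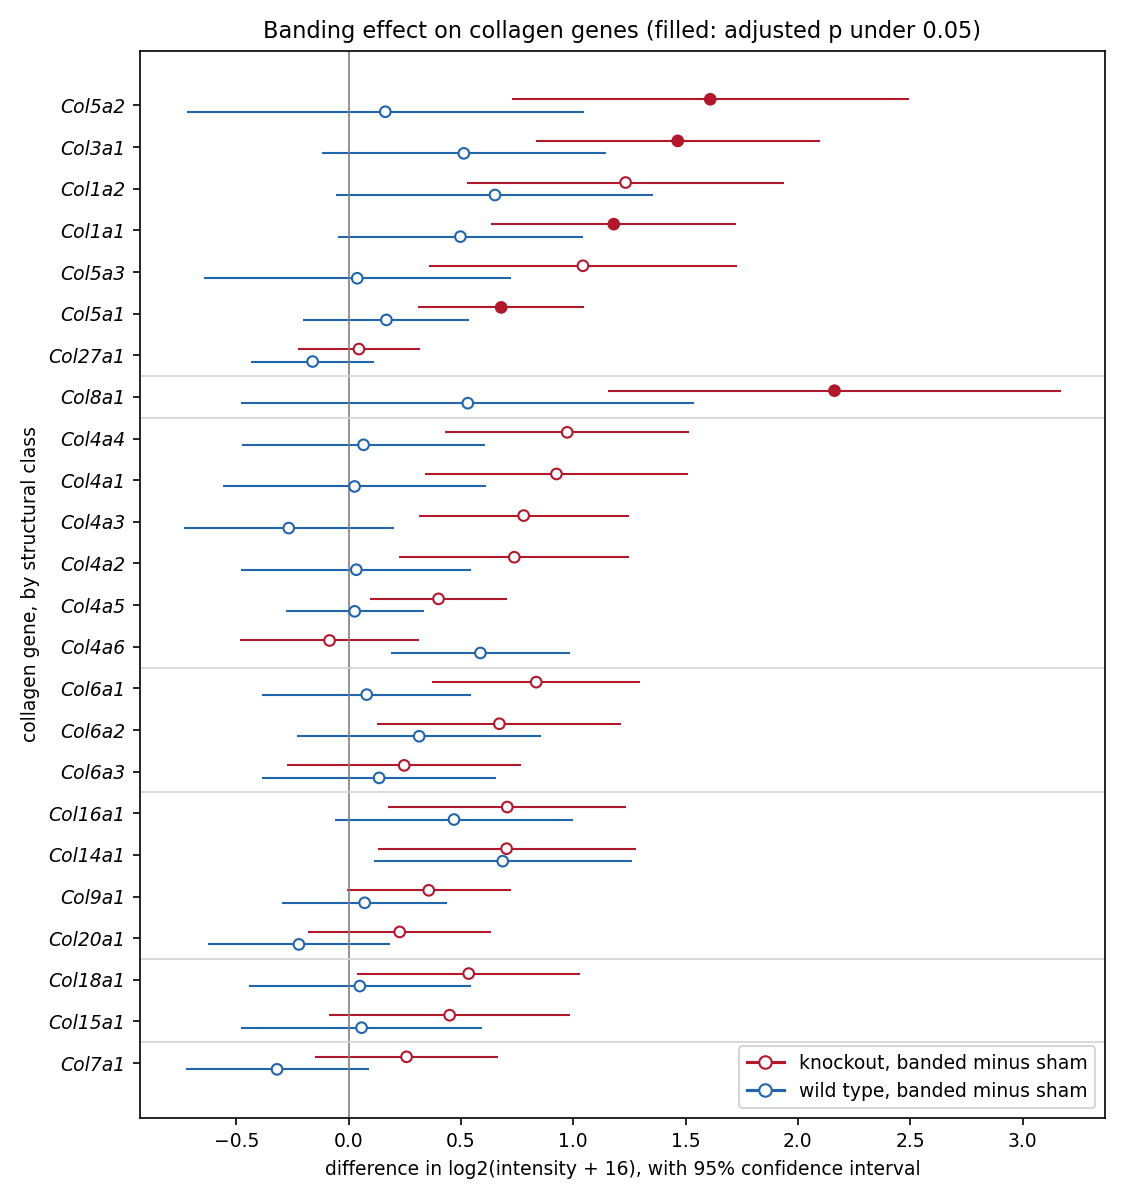
Banding effect on each tested collagen gene, as banded minus sham in log2(intensity + 16) with its 95% confidence interval, in knockout hearts (red) and wild-type hearts (blue). Filled points passed at adjusted p under 0.05, which holds for 5 genes in knockout and 0 in wild-type hearts, and Col8a1 and Col5a2 lie farthest to the right at 2.16 and 1.61 in knockout hearts.

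The difference between the banding effects was tested as an interaction, the knockout effect minus the wild-type effect. Over the 24 collagens 0 passed in limma, as did 0% of all genes, and 10 had an unadjusted p under 0.05, against 9.11% of all genes. The median was 0.54 over the collagens and 0.00 over all tested genes, and 23 of 24 were positive, against 50.4%. Col8a1 was at 1.63 (SE 0.66, adjusted p = 0.522), Col5a2 at 1.45 (SE 0.58, adjusted p = 0.516) and Col4a3 at 1.05 (SE 0.31, adjusted p = 0.442). Col14a1 was at 0.02, with a 95% confidence interval of -0.80 to 0.83. Col4a6 was the only 1 of the 24 tested collagens with a negative value, -0.67 (adjusted p = 0.501). Under the filter there were negative values too, the lowest for Col11a2 at -1.44 (adjusted p = 0.537). Without the array labelled knockout banded 1, 6 of 24 passed, against 1.91% of all genes: Col5a2 (2.11), Col8a1 (2.33), Col3a1 (1.38), Col4a1 (1.27), Col1a2 (1.08) and Col6a1 (1.04). Without it and wild-type banded 3, 4 passed, and the share of all genes in that fit is not given here.

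Knockout against wild-type hearts after banding gave 0 of 24 collagens and 0% of all genes in limma. An unadjusted p under 0.05 was found for 6, against 14.6% of all genes, and the median was 0.29 over the collagens and 0.00 over all tested genes. The groups did not overlap for 2 of 24, against 19.1% of all genes. Col8a1 averaged 1066 ± 651 in knockout banded and 322 ± 112 in wild-type banded hearts (SD, n = 3), a difference of 1.46 (SE 0.47, adjusted p = 0.204). Col4a1 averaged 3410.3 ± 1286 in knockout banded and 2016 ± 244 in wild-type banded hearts, a difference of 0.68 (adjusted p = 0.274). Without the array labelled knockout banded 1, 8 of 24 collagens were higher in knockout banded hearts, against 6.11% of all genes: Col1a2, Col3a1, Col4a1, Col4a2, Col4a5, Col5a2, Col6a1 and Col8a1. Their differences were then 0.53 to 2.16.

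In sham hearts 0 of 24 collagens passed between knockout and wild type in limma, as did 0% of all genes, with 1 unadjusted p under 0.05, against 5.22% of all genes. The knockout shams lay low: 3 of 24 differences were positive, against 50.7% of all genes, and the median was -0.24 over the collagens and 0.00 over all tested genes. The groups did not overlap for 8 of 24, against 10.8%. Col5a3 read 140, 116 and 127 in knockout shams, against 322, 287 and 162 in wild-type shams, at -0.88 (SE 0.32, adjusted p = 0.93). Col3a1 read 1035, 1180 and 1241 in knockout shams, against 2036, 1479 and 1819 in wild-type shams, at -0.61 (SE 0.29, adjusted p = 0.93). For both genes every knockout sham read lower than every wild-type sham. The knockout sham arrays serve in this comparison, in that of banding in knockout hearts, in the interaction and in the average over genotypes. Set against the wild-type sham mean instead of the knockout sham mean, the median collagen difference was 0.07, 0.91 and 0.57 in knockout banded 1, 2 and 3, and -0.02 to 0.26 in the 3 wild-type banded hearts.

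Averaged over both genotypes, banding raised Col1a1 and Col3a1, in 6 against 6 arrays. These were 2 of 24 collagens, against 1.6% of all genes called either way and 0.934% called higher. Col3a1 rose by 0.99 (SE 0.21, adjusted p = 0.0384 by limma) and Col1a1 by 0.84 (SE 0.18, adjusted p = 0.0388 by limma), and Col1a1 was the 1 of 24 whose banded and sham arrays did not overlap, against 1.32% of all genes. Col1a2 (0.94), Col8a1 (1.35), Col14a1 (0.69) and Col5a1 (0.42) did not pass. The count was 13 without the array labelled knockout banded 1, where the share of all genes called, given below, was also higher. It was 2 without wild-type sham 1, and 0 without any 1 of the other 10 arrays.

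Genes that make, process or bind collagen were counted from a list of 58, of which 53 were on the array and 43 were tested. Banding in knockout hearts raised 9 and lowered 1, against 2.05% and 1.76% of all genes, with a median of 0.39. In wild-type hearts 0 passed, with a median of 0.13. By role, 1 of 14 genes of chain folding and hydroxylation rose in knockout hearts, P4ha1 (1.36), whose product hydroxylates proline so that the helix is stable. In propeptide cleavage, Pcolce (0.88), an enhancer of the enzyme that trims procollagen, rose and the protease gene Adamts3 (-1.15) fell, out of 4. Of 3 cross-linking enzyme genes Loxl1 (1.23) rose. Of 9 genes of fibril-associated proteins Postn (2.63) and Bgn (1.14) rose. Of 5 receptor genes Mrc2 (1.31), an uptake receptor for collagen, rose, and of 4 collagenase genes Mmp14 (1.05), a membrane-bound collagenase, rose. Of 4 inducers, growth factor and matricellular genes, Tgfb2 (1.79) and Ccn2 (2.503) rose.

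P4ha1 read 312, 704 and 633 in knockout banded 1, 2 and 3, against 198, 217 and 168 in knockout shams. Mmp14 read 183, 333 and 267 in the banded hearts, against 111, 93.9 and 142 in the shams. Postn, which encodes the matricellular protein periostin, read 639, 4719 and 3978 in the banded hearts, against 356, 355 and 365 in the shams. All 3 genes had banded hearts above every sham heart, with the array labelled knockout banded 1 the lowest of the banded. Without that array 23 of the 43 rose and 2 fell, against 13.2% of all genes called. In the average over genotypes 5 of 43 rose, P4ha1, Loxl1, Bgn, Tgfb2 and Ccn2, and 0 fell, against 1.6% of all genes called. Without knockout banded 1 that became 22 higher and 2 lower, against 9.12% of all genes.

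Markers of the cells that could supply collagen were read in the same arrays, since in whole tissue more cells of a type and more RNA per cell cannot be told apart. The summed intensity of 11 fibroblast markers, none of them a collagen, was 14489 to 17613 in knockout banded and 14501 to 17300.0 in knockout sham hearts, so the groups overlapped. Gsn and Dcn were the largest parts of this sum. Gsn read 5613 to 6252 in the banded and 6402 to 7040 in the sham hearts, and Dcn 3904 to 5195 and 4569 to 5256. Of the 11, Mfap5 (1.59) and Pdgfrl (0.79) rose with banding in knockout hearts, 9 did not pass, and the median was 0.08. Endothelial markers summed to 4044 to 4676 in knockout banded and 3574 to 3951 in knockout sham hearts, without overlap. Their wild-type sums were 4304 to 4488 in banded and 4218 to 5022 in sham hearts. For banding in knockout hearts 0 of 9 passed, or 2 of 9 without the array labelled knockout banded 1. More of all genes were also called without that array, as given above. Smooth muscle and pericyte markers summed to 7525 to 9529 in knockout banded and 9953 to 11836 in knockout sham hearts, with 1 of 7 tested lower. Cardiomyocyte markers summed to 60811 to 62470 in knockout banded and 72393 to 81527 in knockout sham hearts, lower without overlap. Their wild-type sums were 69275 to 86843 in banded and 60292 to 115428 in sham hearts. All 7 had negative differences for banding in knockout hearts, with a median of -0.31, and 0 passed. Cartilage and bone markers summed to 282, 909 and 786 in knockout banded 1, 2 and 3, against 267 to 295 in knockout sham hearts. Most of this was Comp, a matrix protein gene of cartilage and of fibrotic tissue, at 68.4, 674 and 537 in the banded hearts and at most 62.3 in the shams. Of the other lists, 0 of 8 macrophage, 0 of 4 mesothelial and epicardial and 0 of 2 nerve markers tested passed for banding in knockout hearts. It was 0 of 1 for adipocytes (Retn) and 0 of 1 for airway (Sftpb), as the other markers of these lists were not tested. For cartilage and bone it was 0 of 2, or 1 of 2 without the array labelled knockout banded 1, where more of all genes were called. The part of these cell types in the collagen values was not tested.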

How the data were processed

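Total RNA from 12 mouse hearts was extracted with Trizol and labelled with biotin for Affymetrix arrays, per the labels' protocols. The deposited values are a linear intensity per probe set, and the software behind them is not given in the sources used here. A mean trimmed by 2% per end came to 150.001 on all 12 arrays, a common scaling in the deposited values that was kept as it stood. Arrays have no read depth, so their number limits the precision.

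Of 45101 probe sets, 64 were controls, 34945 others had 1 gene in the platform annotation, 932 had several and 9160 were not listed. The probe set with the highest mean log2(intensity + 16) over 12 arrays stood for its gene, and for every collagen this is also the one of highest mean intensity. The upper 60% of 18193 genes, 10916, were fitted in 1 limma model (version 3.58.1, R 4.3.3) with 4 group means, eBayes and a variance trend (8 residual degrees of freedom). Tests were two-sided. In simulated data with 10916 genes, 200 were given a 2-fold difference in the knockout banded arrays. The fit found 84.3% of them for banding in knockout hearts (false calls 4.18%) and 61.3% for the interaction (false calls 5.38%). For banding averaged over genotypes, where the same genes differ by less than 2-fold, it found 58.7% (false calls 6.69%). Recovery with an array that stands apart was not tested.

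The members, lists, structural classes, alternatives and naming rule were chosen with earlier results of these data known. By that rule, per-array values are printed for every collagen called and for 15 listed collagens in any case, and pathway genes are named where called. Per-array values of further collagens were added after their values were seen. Same-numbered arrays were checked for pairing by the correlation of their deviations from the group means, which was -0.165 to 0.233, so the numbers were not taken as pairs. Promoter sequences are from RefSeq (GRCm38.p6).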

Additional observations from a re-analysis of the deposited data

Results flagged for a closer look

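A second probe set of Col1a2, which the gene-level comparisons do not use, rose with banding in knockout hearts by 1.93 (adjusted p = 0.0323 by limma over all probe sets tested). The probe set representing Col1a2 was at 1.23 (adjusted p = 0.0605) in the same table. It is listed because a measurement outside the main one passed the threshold.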

How the results depend on the processing

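Values of single collagens under other settings were taken for the listed collagens that passed the filter, for banding in knockout hearts. Col1a1 and Col3a1 were also taken averaged over genotypes. Of these 381 values, 381 kept their direction, 82 were no longer past the threshold and 27 newly passed it. All were positive in the main fit, at 0.25 to 2.16, and all settings drew on the same arrays. Kept direction therefore says nothing about other collagens or comparisons. Only values past the threshold in the main fit could lose the call, so the 82 are not a share of all 381. For banding in knockout hearts, Col5a1 and Col5a2 each lost the call in 17 settings and kept it in 7. Col1a1 and Col8a1 each lost it in 7 and kept it in 17, and Col3a1 lost it in 6 and kept it in 18. Averaged over genotypes, Col1a1 and Col3a1 each lost it in 14 settings and kept it in 9. The count of collagens called for banding in knockout hearts, 5 of 24, was 2 with all 18193 genes tested, 3 with quantile normalization, 3 without the variance trend, 17 with array weights and 0 with only the groups compared. Averaged over genotypes, the count of 2 was 0 with no filter, without the trend or with all probe sets of a gene averaged, and 10 with array weights. For knockout against wild type after banding, the count of 0 was 5 with array weights. Without knockout banded 1 and wild-type banded 3, the counts were 18 for banding in knockout, 12 averaged, 6 between banded genotypes and 4 for the interaction. The share of all genes called is not set beside these counts, or beside the 10 and 5 with array weights. Such counts therefore do not set collagens apart from other genes. Leaving out 1 array at a time gave 0 to 18 for banding in knockout, 0 to 13 averaged, 0 to 8 between banded genotypes and 0 to 6 for the interaction. With the replicate number as a block, 2 collagens were called for banding in knockout and 0 averaged over genotypes. The block moved no other collagen count. Over all genes, 416 calls for banding in knockout became 212 with no filter, 1870 with array weights, 74 with only the groups compared and 237 with the block. The cause of these shifts was not tested. With 3 arrays a group and no detection calls, precision is limited by the number of arrays.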
